A study of Homo sapiens with 18 samples.

Results

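The immediate early genes EGR1, EGR2, EGR3, IER2, IER3, IER5, NR4A1, SRF, ZFP36 and ZFP36L1 were followed through peak lists of DRIP–seq and A3B-eGFP ChIP–seq from MCF10A cells, a nontumorigenic human breast epithelial line. A region of a list was given to a gene when its midpoint lay inside the gene's hg38 GENCODE span or within 2 kb of its start. Of 774635 regions in 9 lists, 216 met this rule, 180 from DRIP–seq and 36 from ChIP–seq. The 10 genes are among 19962 protein-coding genes of the autosomes and the X chromosome.

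In DRIP–seq, RNA/DNA hybrids are recovered from sheared nucleic acids with the S9.6 antibody. The hybrid is the core of an R-loop, in which nascent RNA pairs with its template and leaves the other DNA strand single. It was run on WT MCF10A cells and on an A3B KO derivative, each treated with DMSO, with PMA for 2 h or with PMA for 6 h (25 ng/ml, an activator of protein kinase C). The KO derivative is a single cell line in which CRISPR cutting fused A3B with the neighbouring APOBEC3A gene, so all 3 KO conditions carry that same deletion. The ChIP–seq came from other MCF10A cells, which carry doxycycline-inducible A3B-eGFP, the DNA cytosine deaminase APOBEC3B tagged with green fluorescent protein, and used an anti-GFP antibody. Uninduced cells received DMSO (DOX- DMSO). Cells induced for 24 h with 1 µg/ml doxycycline received DMSO (DOX+ DMSO) or PMA for 2 h (DOX+ PMA). There was no PMA list without doxycycline, so PMA alone and PMA with A3B-eGFP cannot be told apart in the ChIP–seq. Pooled immunoprecipitations gave 1 library per condition, and no difference below has a replicate check, an error or a test.

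Immediate early genes are transcribed within minutes of a growth or stress signal from transcription factors already present in the cell, with no new protein needed. EGR1, EGR2 and EGR3 are zinc-finger transcription factors, NR4A1 is an orphan nuclear receptor, and SRF is the serum response factor, which binds the CArG box in the promoters of many genes of this class. IER2, IER3 and IER5 are short genes named for this early response, and ZFP36 and ZFP36L1 encode proteins that bind AU-rich elements of mRNAs and promote their decay.

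The CArG box, searched by name on both strands in the 250 bases before each RefSeq start, was present in 3 of 13 promoters of the 8 members searched, against 1.19% of 21571 promoters of protein-coding genes. IER3 and EGR3 were not searched, and neither were the starts of the canonical transcripts of NR4A1 and ZFP36L1. The searched NR4A1 starts lay 0 and 14883 bp into its span, and its canonical transcript begins 28610 bp into it. The 3 promoters with a CArG box are shown, 5′ to 3′ on the strand of the gene, because the element is the one SRF binds and their genes differ in DRIP signal. Sequences are RefSeq's for GRCh38.p14, and capitals mark the CArG boxes.
EGR1 chr5:138465229-138465478 (+): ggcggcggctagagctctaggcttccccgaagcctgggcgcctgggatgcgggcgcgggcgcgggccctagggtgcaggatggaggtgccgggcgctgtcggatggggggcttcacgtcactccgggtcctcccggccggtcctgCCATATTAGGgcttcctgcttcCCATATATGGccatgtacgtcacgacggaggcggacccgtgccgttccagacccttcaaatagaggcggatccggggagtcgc
SRF chr6:43171019-43171268 (+): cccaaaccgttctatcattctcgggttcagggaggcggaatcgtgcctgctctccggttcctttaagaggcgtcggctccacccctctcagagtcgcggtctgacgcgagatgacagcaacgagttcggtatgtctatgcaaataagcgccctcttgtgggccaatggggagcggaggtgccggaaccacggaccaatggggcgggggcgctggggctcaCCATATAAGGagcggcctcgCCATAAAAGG
EGR2 chr10:62816374-62816616 (-): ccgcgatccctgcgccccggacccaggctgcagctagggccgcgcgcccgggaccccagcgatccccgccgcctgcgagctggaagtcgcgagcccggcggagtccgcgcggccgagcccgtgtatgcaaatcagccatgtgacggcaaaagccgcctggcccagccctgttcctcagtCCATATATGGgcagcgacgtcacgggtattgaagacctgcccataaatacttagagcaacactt
The EGR1 promoter had 2 boxes, starting at −105 and −83 from the start. In SRF the 2 boxes began at −30 and −10. EGR2 had 1 box, at −71 of the start of its canonical transcript, and the last bases before that start are left out. None of the 13 searched promoters of the members held an AP-1 site (TGANTCA, 5.36% of all promoters) or a TATA box (TATAAA, 8.98%). A cAMP response element (TGACGTCA, 2.04% of all) was found in ZFP36L1 and an EGR site (GCGTGGGCG or GCGGGGGCG, 7.04%) in SRF. An NF-κB site, searched by name and present in 5.84% of all, was also found in SRF, and these matches are letters in a window and nothing more.

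The lists give for each region a fold enrichment, the ratio of the fragment pileup at its summit to the local background of the input, and each region is 500 bp around a summit. Fold enrichment and list length can move with sequencing depth, which is unknown here, so each gene's highest summit was also placed among 32160 regions that were called in all 6 DRIP lists. For a comparison of a first-named with a second-named condition, the log2 rank ratio divides the second rank by the first and takes the log2. A value above 0 therefore means a higher place in the first-named condition, and values of at least 1 or at most −1 were called. Positions are counted from the gene's most 5′ start along its strand.

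EGR1, the best known of the EGR factors (chr5:138465479-138469303, 1 transcript), had the largest change in the group after PMA. Its highest summit had a fold enrichment of 4.43 in WT DMSO, 17.5 in WT PMA 2 h and 6.89 in WT PMA 6 h. In A3B KO the values were 4.32 in DMSO, 49.4 at 2 h and 8.57 at 6 h. Both DMSO lists and both 6 h lists lay below both 2 h lists. At the same summits the pileup in fragments was 47 (DMSO), 189 (2 h) and 87 (6 h) in WT. The A3B KO pileups were 40, 394 and 135. Within the list the summit went from rank 43824 of 91894 in WT DMSO to rank 307 of 111771 at 2 h, and in A3B KO from 48055 of 98432 to 50 of 120428. The log2 rank ratio of PMA 2 h against DMSO was 6.36 in WT and 8.82 in A3B KO, and that of 6 h against 2 h was −5.73 and −6.69. Since gain and loss share the 2 h library, they are not separate evidence. The summit stayed in one place, between +570 and +640 in the 6 lists, at the border of the first coding exon and the intron. At 2 h EGR1 had 4 regions in WT and 5 in A3B KO, against 2 in each DMSO list. The second DMSO region, at +2588 in WT and +2463 in A3B KO, had fold enrichments of 2.44 and 2.58, and the 2 h regions that overlap it, at +2620 and +2687, had 5.84 and 10.4. Regions called at 2 h and not in DMSO lay at +3272 in WT and +3294 in A3B KO, in the 3′ UTR, and upstream. Another summit lay just outside the 2 kb limit in all 6 lists, between −2070 and −2111, with fold enrichments of 2.72 to 4.29. The 300 bases around the 2 h summit of WT are shown with runs of at least 4 G in capitals, since G runs on the RNA-like strand are a sequence feature linked to R-loops.
EGR1 chr5:138465906-138466205 (+): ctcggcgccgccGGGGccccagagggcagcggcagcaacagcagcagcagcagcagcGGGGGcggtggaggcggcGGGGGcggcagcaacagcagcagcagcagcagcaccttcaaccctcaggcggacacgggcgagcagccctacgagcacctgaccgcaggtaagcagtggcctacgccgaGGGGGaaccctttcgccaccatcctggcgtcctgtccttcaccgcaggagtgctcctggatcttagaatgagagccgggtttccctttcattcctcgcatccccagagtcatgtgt
This window is 67.0% G and C and holds 4 G runs.

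EGR2 and EGR3 had almost no regions. EGR2 had none in any of the 9 lists, and its canonical promoter is the one shown above. EGR3 had 1 region in 1 list, A3B KO PMA 2 h, at −1558 with a fold enrichment of 5.94 and a pileup of 46. A gene without a region may still have signal under the peak threshold, so its level is unknown.

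SRF (chr6:43171269-43181506) had a small change and few regions. Its highest fold enrichment was 4.12, 7.81 and 8.04 in WT (DMSO, PMA 2 h, PMA 6 h) and 4.86, 7.10 and 6.40 in A3B KO. In 5 of the 6 lists that summit lay upstream, between −1304 and −1423, and not over the CArG boxes. In WT DMSO it lay at +9190 in the 3′ UTR, within 2 kb of the start of CUL9, so the WT log2 rank ratio of 2.18 for 2 h against DMSO compares separate places. The A3B KO value of 0.75, from upstream summits on both sides, was not called.

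NR4A1 went from no region to many. Its span is 36676 bp because of long alternative transcripts, and the canonical transcript begins 28610 bp inside it (chr12:52051442-52059503). Over that transcript or within 2 kb of its start there were 0 regions in WT DMSO, 7 in WT PMA 2 h and 1 in WT PMA 6 h. In A3B KO there were 0, 11 and 0. Regions are summits, and several can lie in 1 called peak. Over the whole span at 2 h, the 8 WT regions lay in 4 peaks and the 14 A3B KO regions also in 4. Both lines thus had regions over the canonical NR4A1 gene mainly at 2 h. The highest of these summits had a fold enrichment of 11.7 in WT and 12.4 in A3B KO at 2 h, at +33454 and +33431 in the same intron, and the lone WT 6 h region had 2.20. Over the whole span other regions, at +2070 and between +5510 and +5565, entered, and these gave the highest value in A3B KO DMSO (6.25), WT 6 h (7.26) and A3B KO 6 h (6.16). The A3B KO log2 rank ratio of 3.09 for 2 h against DMSO therefore sets the canonical gene against a distant site, as do the ratios of 6 h against 2 h. The summit window of WT 2 h is shown because the A3B-eGFP regions described further on lie over the same transcript.
NR4A1 chr12:52056137-52056436 (+): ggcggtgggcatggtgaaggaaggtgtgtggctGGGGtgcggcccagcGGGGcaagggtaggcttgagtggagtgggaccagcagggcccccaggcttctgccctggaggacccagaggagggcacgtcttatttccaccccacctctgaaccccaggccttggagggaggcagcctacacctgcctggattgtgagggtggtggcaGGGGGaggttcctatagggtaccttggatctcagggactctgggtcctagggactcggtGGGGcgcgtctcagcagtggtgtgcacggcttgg
The window is 65.3% G and C with 4 G runs, marked in capitals as before.

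**Figure D1:**
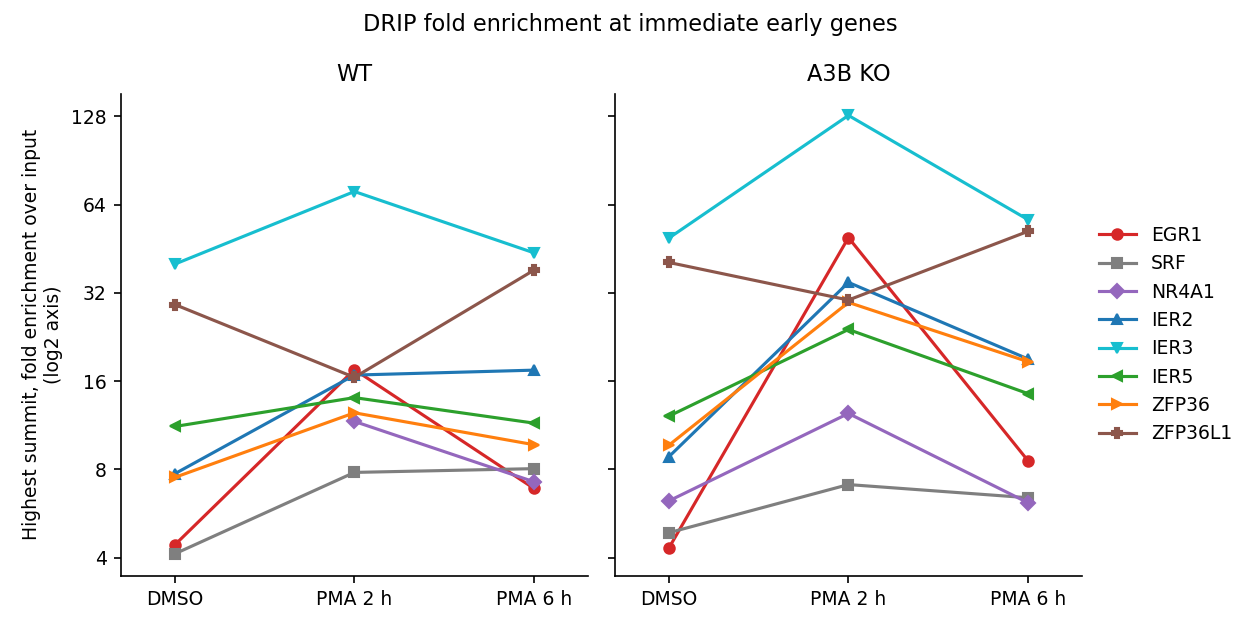
Fold enrichment over input (log2 axis) of the highest DRIP summit of each of 8 members in WT (left) and A3B KO (right) after DMSO, PMA 2 h and PMA 6 h, 1 library per point. EGR1 peaked at 2 h at 17.5 in WT and 49.4 in A3B KO, while ZFP36L1 was lowest at 2 h in both lines, at 16.5 and 30.3; EGR2 had no region, EGR3 had 1, and NR4A1 had none in WT DMSO.

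IER3, which encodes a regulator of cell survival, had the highest fold enrichment of the members in every DRIP list. Its highest fold enrichment was 40.1 in WT DMSO, 71.0 at PMA 2 h and 43.9 at 6 h, and in A3B KO 49.3, 129 and 56.9. The value of A3B KO at 2 h was rank 1 of all 120428 regions of that list. The summit lay between +1039 and +1075 in the 3′ UTR of this 1350 bp gene, and every IER3 region lay within 2 kb of the start of FLOT1, so in these unstranded libraries the signal of the 2 genes cannot be told apart. The log2 rank ratio of 2 h against DMSO was 1.72 in WT and 5.52 in A3B KO. With ranks this near the top, a small step is a large ratio: in WT the summit moved from rank 69 to rank 21 of the shared regions. When regions were ranked by pileup the ratios were 0.39 and 0.77, and neither was then called. A second IER3 summit lay beyond the gene, between +1890 and +1986 in the DMSO and 6 h lists, inside the window. There its fold enrichment ran from 17.2 in WT DMSO to 51.5 in A3B KO PMA 6 h. At 2 h it was at +2042 in WT and +2043 in A3B KO, just outside the window, with fold enrichments of 55.3 and 80.5.

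IER2 carried its signal at the 3′ part of the gene. Its highest fold enrichment was 7.73, 16.8 and 17.4 in WT and 8.84, 34.8 and 19.1 in A3B KO, at summits from +3234 to +4094 in the coding exon or the 3′ UTR. For 6 h against 2 h in WT its log2 rank ratio was −0.26 by fold enrichment, −0.71 by −log10 q and −1.06 by pileup, which is past the limit of a call. Against DMSO the 2 h ratios were 3.79 in WT and 4.22 in A3B KO, and the 6 h ratios 3.53 and 3.23. Of its 35 DRIP regions 20 lay in STX10 or within 2 kb of the start of STX10, its neighbour, and none of the highest summits did. Within 2 kb of the IER2 start alone, the 2 h ratio was −0.13 in WT and 1.60 in A3B KO, and the 6 h ratio in A3B KO was −0.0011. These near-start ratios compare separate places. The highest DMSO summit there lay upstream, inside STX10, at −819 in WT and −1719 in A3B KO. At 2 h it lay at +535 in WT and +508 in A3B KO, and at 6 h in A3B KO at +494. The latter summits also lay within 2 kb of the start of STX10, so the ratios do not show whether the start of IER2 changed.

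IER5, a gene without introns, changed less. Its highest fold enrichment was 11.2, 14.1 and 11.5 in WT and 12.2, 24.0 and 14.5 in A3B KO, at summits between +1089 and +1218. The 2 h ratios against DMSO were 1.18 and 1.77. At 6 h the WT summit was below its DMSO place (−1.09) and the A3B KO summit above it (0.77), and by pileup the WT value was 0.046.

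ZFP36 and its relative ZFP36L1 moved in opposite directions at 2 h. The highest ZFP36 summit, between +627 and +715 in the intron, had fold enrichments of 7.51, 12.5 and 9.71 in WT and 9.68, 29.7 and 18.6 in A3B KO. Its ratios for 2 h against DMSO were 2.81 and 3.30. A stronger summit lay just past the end of ZFP36 and outside the rule, between +2908 and +2973, with 14.5, 23.4 and 22.1 in WT and 13.6, 35.8 and 22.5 in A3B KO. It too was highest at 2 h in both lines.

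The highest ZFP36L1 summit, 484 to 528 bp after the start of the canonical transcript, had fold enrichments of 29.2, 16.5 and 38.2 in WT. In A3B KO they were 40.6, 30.3 and 51.9, so the 2 h list was the lowest of its line in both. Pileups in fragments followed, with 169 (DMSO), 95 (2 h) and 231 (6 h) in WT. The A3B KO pileups were 201, 145 and 333. The ratio of 2 h against DMSO was −1.18 in WT and −1.25 in A3B KO, and that of 6 h against 2 h was 2.28 and 2.52. By pileup the 2 h ratios were −0.90 and −0.58 and by −log10 q they were −0.86 and −0.66, all below 0 and none called. Near the most 5′ start, where another summit lies, the lower place at 2 h did not appear: within 2 kb of it the ratios were −0.17 in WT and 0.63 in A3B KO. The summit windows of both genes are shown, since they are alike in position in an intron and in G runs while the fold enrichment moved oppositely.
ZFP36 chr19:39407413-39407712 (+): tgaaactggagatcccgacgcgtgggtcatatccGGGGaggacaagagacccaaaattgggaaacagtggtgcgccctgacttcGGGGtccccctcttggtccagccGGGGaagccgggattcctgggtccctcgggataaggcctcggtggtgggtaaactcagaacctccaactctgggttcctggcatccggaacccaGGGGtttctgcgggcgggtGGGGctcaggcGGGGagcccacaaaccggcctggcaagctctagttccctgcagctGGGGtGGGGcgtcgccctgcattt
ZFP36L1 chr14:68792390-68792689 (-): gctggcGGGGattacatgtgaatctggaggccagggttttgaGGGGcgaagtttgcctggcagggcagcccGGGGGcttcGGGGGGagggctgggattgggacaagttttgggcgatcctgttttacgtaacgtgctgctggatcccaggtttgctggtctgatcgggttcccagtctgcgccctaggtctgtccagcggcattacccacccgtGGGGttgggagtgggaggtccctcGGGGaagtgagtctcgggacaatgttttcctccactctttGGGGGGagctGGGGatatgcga
Each of the 2 windows holds 8 G runs, and they are 63.7% and 61.0% G and C.

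Over the members, 7 had a DRIP region in WT DMSO, 8 at PMA 2 h and 8 at 6 h, and 8, 9 and 8 did in A3B KO. Of all protein-coding genes 70.1%, 70.8% and 77.6% had one in WT and 71.9%, 73.5% and 77.2% in A3B KO, which are near the members' own shares. The members held 25, 31 and 35 regions in WT and 22, 39 and 28 in A3B KO. When lists were shortened to equal length the WT 6 h count was 22. The DRIP regions lay in introns (44), coding exons (42), 3′ UTRs (35), upstream (31), in parts of a span outside the canonical transcript (24) and past the end (4).

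For PMA 2 h against DMSO in WT, 6 of 7 ranked members had a log2 rank ratio of at least 1, against 23.6% of 12641 genes, and 1, ZFP36L1, had at most −1, against 22.2%. The 6 include SRF, whose ratio compares separate places. In A3B KO 6 of 8 were higher, against 23.6% of 13229 genes, and 1 was lower, against 20.7%. With the canonical window NR4A1 dropped out there and 5 of 7 were higher. The median over the members was 2.18 in WT and 3.19 in A3B KO, and over all genes 0.02 and 0.05. In these bulk libraries, more cells with a hybrid at a gene and more hybrid per cell cannot be told apart.

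For 6 h against 2 h in WT, 4 of 8 members (EGR1, NR4A1, ZFP36 and IER5) were lower, against 15.9% of all genes, and ZFP36L1 was higher, against 23.4%. The order of loss in WT was EGR1 (−5.73), NR4A1 (−3.89), ZFP36 (−2.87) and IER5 (−2.28). In A3B KO 4 of 8 were lower, against 17.9%, and again ZFP36L1 alone was higher, against 19.8%. The lower members there were EGR1 (−6.69), IER3 (−4.09), NR4A1 (−3.84) and IER5 (−1, at the limit). ZFP36 had −0.67 in A3B KO, against −2.87 in WT. At the stronger summit past its end, fold enrichment went from 23.4 to 22.1 in WT and from 35.8 to 22.5 in A3B KO. Ranked by pileup, 2 A3B KO members were lower, against 12.9% of all genes, and none was higher, against 13.0%. In WT 5 were then lower, IER2 among them, against 12.4%. The NR4A1 ratios set the canonical gene at 2 h against distant sites at 6 h. With the canonical transcript as the window, NR4A1 had −5.26 in WT and, having no region in A3B KO at 6 h, left 3 of 7 members lower there.

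Set against DMSO, at 6 h 3 of 7 WT members were higher (IER2 3.53, SRF 1.40, ZFP36L1 1.10), against 27.5% of all genes, and 1 was lower (IER5), against 19.7%. Of these ZFP36L1 had been lower than DMSO at 2 h. In A3B KO none was lower, against 18.9%, and 5 of 8 were higher, against 23.8%: IER2 (3.23), ZFP36 (2.63), EGR1 (2.13), IER3 (1.44) and ZFP36L1 (1.27). The EGR1 value in WT was 0.63. Which members were called changed with the ranking. By pileup in WT EGR1 was called (1.24) beside SRF (1.36), against 21.4% of all genes, and IER2 (0.55) and ZFP36L1 (0.24) were not. By −log10 q EGR1 (1.42), IER2 (1.47) and SRF (1.48) were called, against 25.0%. In A3B KO the pileup called EGR1 (2.68), ZFP36 (2.13) and IER5 (2.00), against 15.1%, and not IER2 (0.88), ZFP36L1 (0.23) or IER3 (0.0088). EGR1 and ZFP36 in A3B KO and SRF in WT were called higher by all 3 measures. The SRF value sets a WT DMSO summit at +9190 against a 6 h summit at −1390, so it compares separate places. All comparisons with DMSO in one line share its DMSO library.

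**Figure D2:**
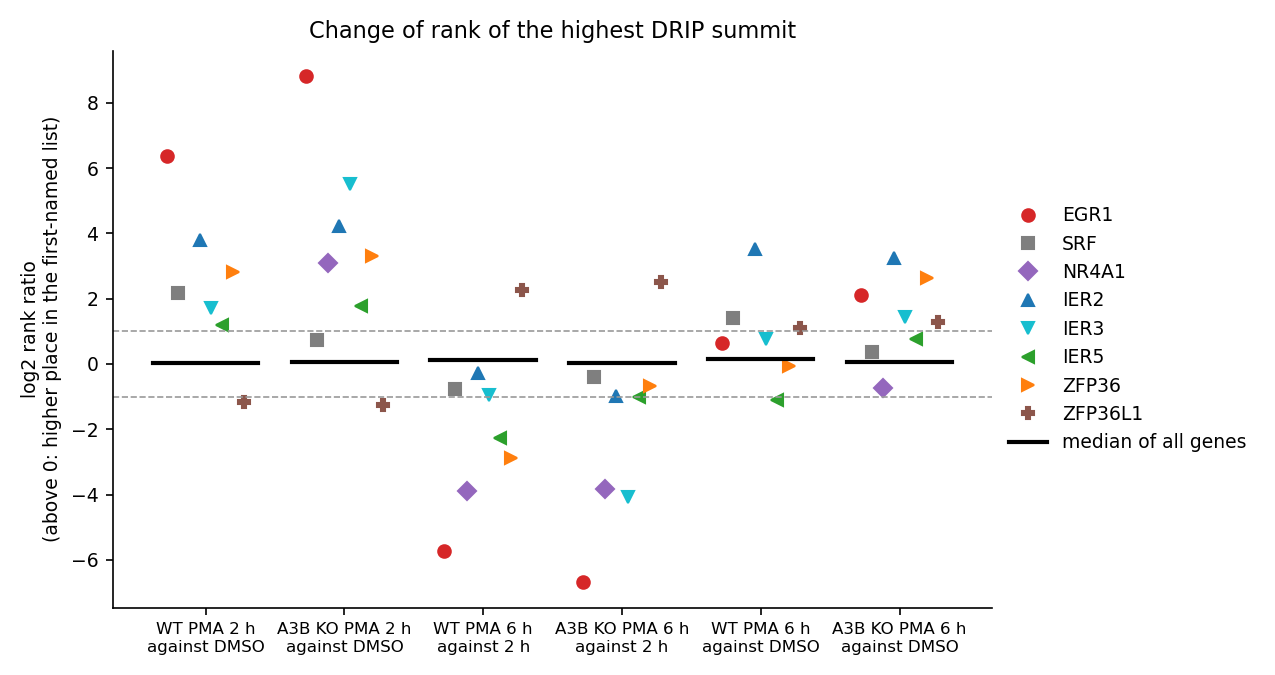
Log2 rank ratio of the highest DRIP summit of each ranked member for 6 comparisons over time, 1 library per condition, with a black bar at the median of all genes and dashed lines at 1 and −1. EGR1 is the highest point at 2 h against DMSO (6.36 and 8.82) and the lowest at 6 h against 2 h (−5.73 and −6.69), and ZFP36L1 runs the other way.

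The comparison of A3B KO with WT asks whether loss of A3B goes with a different DRIP place of these genes. In DMSO 1 of 7 members, ZFP36 (1.46), was higher, against 18.3% of all genes, none was lower, against 17.8%, and the others lay between −0.01 (EGR1) and 0.93 (ZFP36L1). By pileup (0.70) and by −log10 q (0.97) ZFP36 was not called, and no member was higher, against 11.6% and 15.0% of all genes. At PMA 2 h none was lower, against 17.5%, and 4 of 8 were higher, against 20% of all genes: IER3 (4.39), EGR1 (2.45), ZFP36 (1.95) and IER2 (1.18). This count too rested on the measure. Ranked by pileup or by −log10 q, 0 of 8 were higher, against 14.5% and 17.4% of all genes, and SRF was lower (−1.02 and −1.05), against 10.9% and 14.6%, although EGR1 (0.68 by pileup), IER3 (0.60) and ZFP36 (0.73) kept values above 0. At PMA 6 h none was lower, against 18.9%, and 5 of 8 were higher, against 16.8%: ZFP36 (4.15), IER5 (2.13), EGR1 (1.49), IER3 (1.27) and ZFP36L1 (1.10). By pileup 4 of 8 were higher at 6 h, against 11.4% of all genes under that ranking, and by −log10 q 3 of 8, against 14.03%, with ZFP36 at 2.72 and 3.07. The stronger summit past the end of ZFP36, outside the rule, differed little at 6 h, with fold enrichments of 22.1 in WT and 22.5 in A3B KO. SRF and NR4A1 were below 0 at both times after PMA, with −0.98 and −0.33 at 2 h, except that NR4A1 at 6 h was 0.12 by pileup. At 6 h the NR4A1 ratio compares separate sites far from the canonical transcript, at +5510 in WT and +2070 in A3B KO. The KO is 1 line, and differences between clones of MCF10A cannot be told apart from loss of A3B. These comparisons use the same 6 libraries as those over time.

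**Figure D3:**
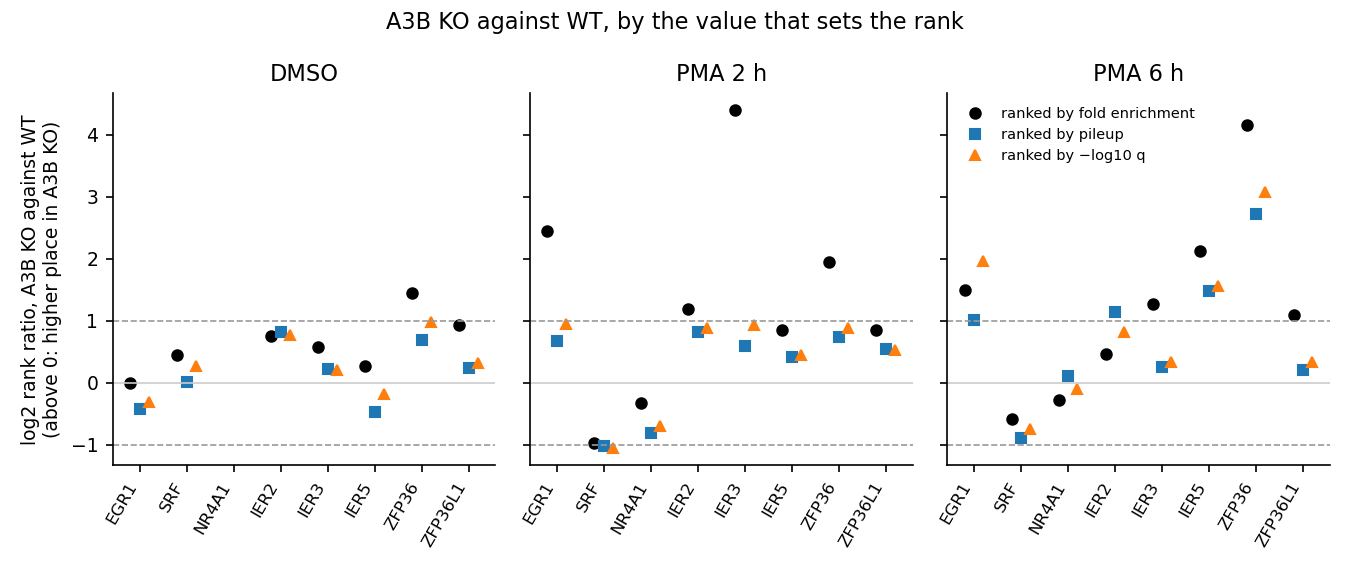
Log2 rank ratio of A3B KO against WT for each ranked member in DMSO, PMA 2 h and PMA 6 h, with ranks by fold enrichment (circles), pileup (squares) and −log10 q (triangles). At 2 h the circles of IER3 (4.39), EGR1 (2.45), ZFP36 (1.95) and IER2 (1.18) lie above the dashed line at 1 and the squares and triangles do not. ZFP36 at 6 h lies above it by all 3 measures, while the stronger summit past its end had fold enrichments of 22.1 in WT and 22.5 in A3B KO.

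A3B-eGFP regions over the members were more numerous with PMA, though several regions can lie in 1 called peak. There was 1 in DOX- DMSO, 5 in DOX+ DMSO and 30 in DOX+ PMA, of 4040, 5945 and 7122 regions in the lists. The members with at least 1 were 1, 4 and 6 of 10, against 1.63%, 9.66% and 7.8% of all genes. From DOX+ DMSO to DOX+ PMA 5 members gained regions, against 5.23% of all genes, and 1, ZFP36L1, had fewer (1 against 2), against 6.61%. Counted as called peaks, IER2, IER3 and ZFP36 had 1 in both lists, so their added regions were further summits within a peak. EGR1 went from no peak to 1, NR4A1 from no peak to 2 and ZFP36L1 from 2 peaks to 1. From DOX- to DOX+ in DMSO 3 members gained regions, against 9.19%, and none had fewer, against 1.1%.

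NR4A1 held 14 of the 30 regions with PMA and none in the other ChIP lists. They spread from −513 to +7332 of the canonical transcript. Without NR4A1 the counts were 1, 5 and 16. ZFP36 had 0, 1 and 6 regions, IER2 0, 1 and 4, and EGR1 0, 0 and 3. Past the end of ZFP36 and outside the rule, an A3B-eGFP summit lay at +2806 in DOX+ DMSO and +2917 in DOX+ PMA. Its fold enrichments of 3.73 and 3.52 were above the highest inside the window in the same lists (2.16 and 3.38), and it was not higher with PMA. The EGR1 regions were at +474, +951 and +1567, the first of them beside the DRIP summit, with fold enrichments of 3.35, 2.50 and 2.25. IER3 had 1, 1 and 2, all past its end toward FLOT1, and its region without doxycycline had a fold enrichment of 1.94. IER5, SRF, EGR2 and EGR3 had none. The highest fold enrichment per gene with PMA ran from 2.13 (ZFP36L1) to 4.79 (IER3), around the list median of 3.19.

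**Figure D4:**
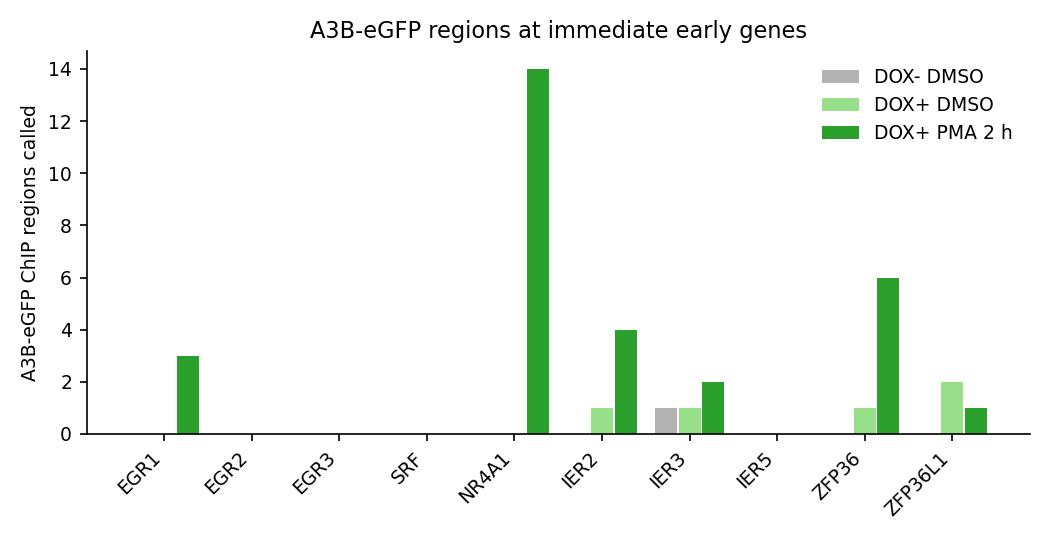
Number of A3B-eGFP ChIP regions called at each of the 10 members in DOX- DMSO, DOX+ DMSO and DOX+ PMA 2 h, 1 library each. NR4A1 has 14 regions, in 2 called peaks, with PMA and none otherwise, and 4 members have none in any list.

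Many of these regions coincided with DRIP regions, though the assays used different cells. Of the 30 regions with PMA 26 (86.7%) overlapped a WT PMA 2 h DRIP region by at least 1 bp, against 42.6% of the 4265 A3B-eGFP regions in protein-coding genes. For NR4A1 12 of 14 did, for ZFP36 5 of 6, for EGR1 2 of 3 and for IER2 4 of 4. With an overlap of at least 250 bp the count was 13 of 30, against 26.7%. With the A3B KO PMA 2 h DRIP list it was 27 of 30 by at least 1 bp, against 48.2%, and 18 of 30 by at least 250 bp, against 31.1%. All 5 DOX+ DMSO regions overlapped a WT DMSO DRIP region, against 46.7% of 3331 such regions in genes, and 3 of them did by at least 250 bp, against 29.7%. Regions of one gene are not independent, and 14 of the 30 are from NR4A1.

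**Figure D5:**
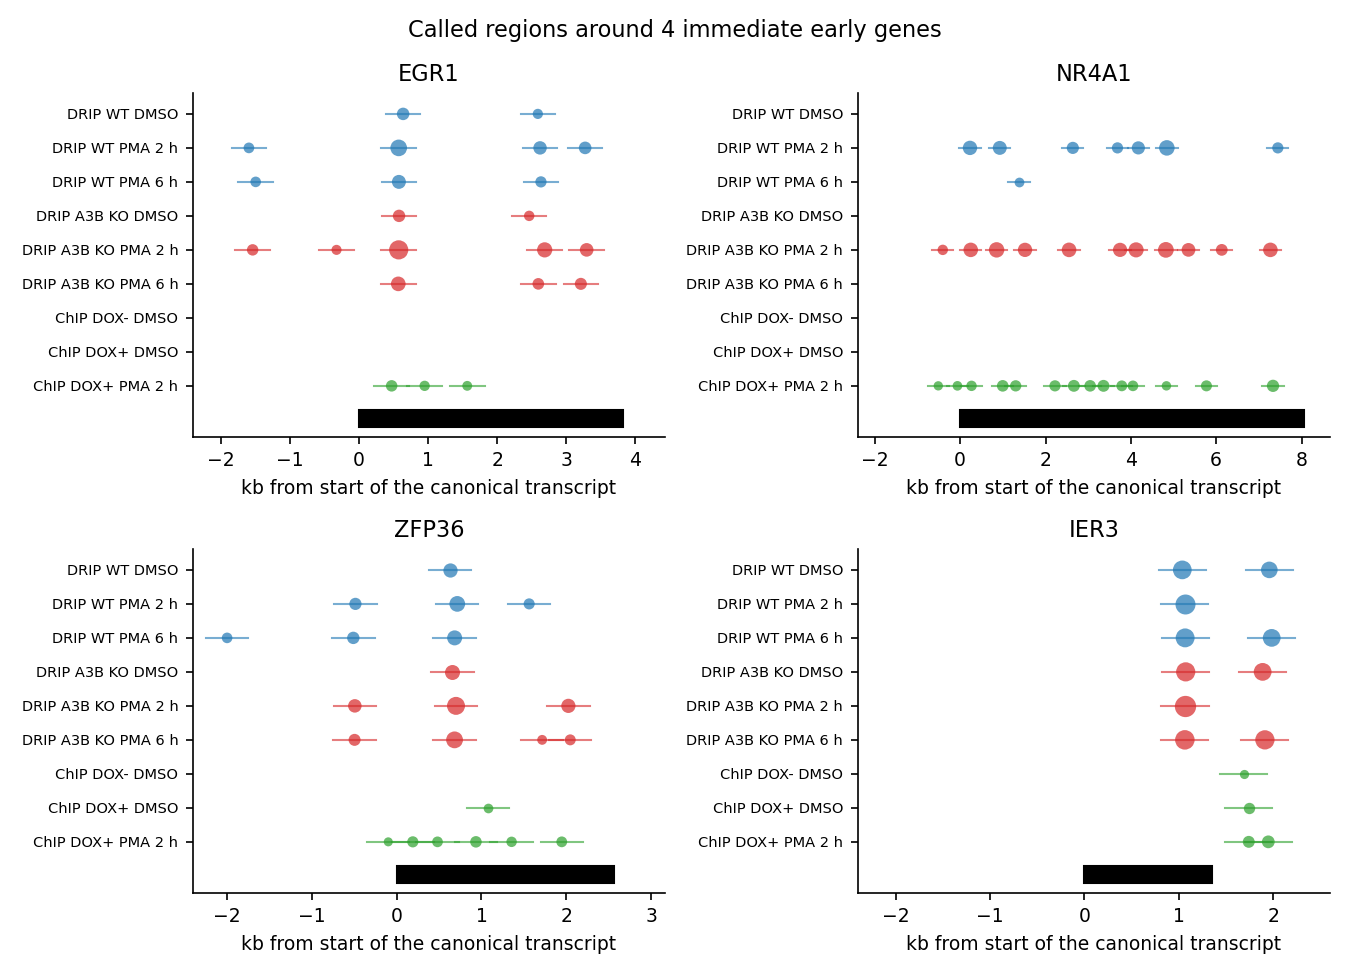
Positions of the called 500 bp regions (lines, with a dot at the midpoint whose area grows with log2 fold enrichment) around EGR1, NR4A1, ZFP36 and IER3, in kb from the start of the canonical transcript (black bar), for DRIP in WT (blue) and A3B KO (red) and for A3B-eGFP ChIP (green). NR4A1 is empty in DMSO and holds 7 and 11 DRIP regions and 14 A3B-eGFP regions at PMA 2 h, while the main EGR1, ZFP36 and IER3 summits are at the same place in all 6 DRIP lists.

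The members' regions were rich in G and C. On the strand of the gene the median over the 31 regions of WT PMA 2 h was 61.6%, against 46.2% over 60490 regions in protein-coding genes, and 96.8% held a run of at least 4 G, against 65.0%. In WT DMSO the values were 60.4% against 47.0%, and 96.0% against 69.7%. The 30 A3B-eGFP regions with PMA had a median of 62.9%, against 54.2% over such regions in genes. The share of regions with a G run among A3B-eGFP regions with PMA was 96.7%, against 84.3%. The regions in genes used for comparison had midpoints inside gene spans, with genes on a single strand there. Those of the members also include regions within 2 kb of a start, so the rules differ.

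Other genes of the same pathways were read from lists. Of 30 other immediate early genes 22 were ranked in WT, of which 9 were higher at 2 h and 4 lower, with a median ratio of 0.85, and in A3B KO 10 of 22 were higher and 3 lower. Over all genes 23.6% were higher in each line, and 22.2% (WT) and 20.7% (A3B KO) were lower, shares near those of the lower members of this list. HBEGF, which encodes a ligand of the EGF receptor, had 8.76 in WT, FOS, a subunit of AP-1, 5.32, and CSRNP1 5.21, while MYC had −6.49. In A3B KO HBEGF had 9.60, FOS 4.57 and MYC −8.12, and CSRNP1 had no region in DMSO. Of the cofactors of SRF and corepressors of EGR proteins 5 of 6 ranked in WT were higher and none lower, and in A3B KO 3 of 6 were higher and 1 lower. The ternary complex factor ELK3 had 4.09 in WT and 5.44 in A3B KO, and ELK4 1.17 and 3.28. The EGR corepressor NAB1 had 3.01 in WT and 0.013 in A3B KO, and MRTFA 1.90 and 0.53, neither of them called in A3B KO. NAB2, the other corepressor, had 1.02 in WT and −1.30 in A3B KO, and held 0, 2 and 8 A3B-eGFP regions in DOX- DMSO, DOX+ DMSO and DOX+ PMA. Of the members' relatives NR4A2 had 1.13 in WT and 2.20 in A3B KO, ZFP36L2 1.38 and 0.69, and IER5L −0.65 and 0.57, and EGR4 had no region in any list. Of 3 genes that the study uses as unresponsive to PMA none was higher, with 0.37 for GAPDH and 0.89 for HSPA8 in WT, and GEMIN7 was lower at −4.37. In A3B KO they had −2.86, 0.23 and −1.54.

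Compared over the 6 DRIP lists with each gene centred on its own mean log2 rank, the 5 genes among 11465 nearest to the median of the 7 members ranked in all lists were TRAPPC12, NPC1, ENPP6, AQP7 and NRTN, at distances of 0.84 to 1.07. The nearest member was IER5, at 1.61, and EGR1 was at 5.56, farther than 93.4% of genes, so the median describes the moderate members and not EGR1 or ZFP36L1.

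Checks on the whole series bear on all of the above. Basal breast markers had DRIP regions at 12 of 12 genes in 5 lists and at 11 in A3B KO PMA 6 h, against 4 to 6 of 8 luminal, 1 to 3 of 5 blood and 2 to 4 of 5 fibroblast markers. Of all protein-coding genes 70.1% (WT DMSO) to 77.6% (WT PMA 6 h) had a DRIP region. APOBEC3B itself had 0, 1 and 2 DRIP regions in WT and none in A3B KO, and 3, 5 and 6 ChIP regions in DOX- DMSO, DOX+ DMSO and DOX+ PMA. A region is called on the DNA present and is no measure of mRNA. Median summit pileup was 20 to 22 fragments in the DMSO and 2 h lists and 29 to 30 at 6 h, which moves with the longer 6 h lists, and its part in the 6 h values was not tested.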

How the data were processed

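DRIP–seq and ChIP–seq peak lists of 9 immunoprecipitations were read; the 9 inputs have no list of their own, and each condition was 1 library. The members and gene lists were chosen with earlier results of these data known. The authors trimmed reads with Cutadapt 1.13, aligned them to hg38 with STAR 2.6.1d, used SAMtools 1.3.1 to retain properly paired reads, Picard to drop duplicates and bedtools 2.29.2 to drop excluded regions. Summits were called with MACS2 at a q of 0.01 with each input as control; its version is 2.2.6 in the submitters' processing notes, and the paper's methods name another. Pileup is the deposited signal in fragments at a summit. The deposited −log10 p and q are the authors' values. Fold enrichment is the authors' ratio over the local background. Reads per library are unknown, and so is whether starts count from 0 or 1, which moves a position by 1 bp.

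Genes came from GENCODE 44. A gene's highest summit by fold enrichment was ranked among 32160 WT DMSO regions overlapped by at least 1 bp in all 6 DRIP lists. A log2 rank ratio of at least 1 or at most −1 was called, beside the share of all protein-coding genes. No test was made. Named genes were all 10 members, up to 4 of each list with the largest WT ratios at 2 h, and the 5 genes nearest in pattern; NAB2 and EGR4 were named after their values were seen. Alternatives were ranks by pileup or −log10 q, ranks among genes, −log10 q of at least 5, start windows, equal list lengths and a 250 bp overlap; the canonical transcript window was added after the data were seen. Steps were tested on simulated lists. Python 3.11.15, numpy 2.4.6, pandas 2.3.3 and matplotlib 3.10.9 were used.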

Additional observations from a re-analysis of the deposited data

Results flagged for a closer look

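Between WT and A3B KO, 2 members lay on opposite sides of 0 for PMA 6 h against DMSO. For IER5 the log2 rank ratio was −1.09 in WT and 0.77 in A3B KO. For ZFP36 it was −0.064 in WT and 2.63 in A3B KO. At the stronger summit past its end, fold enrichment rose in both lines, from 14.5 in DMSO to 22.1 at 6 h in WT and from 13.6 to 22.5 in A3B KO. By pileup each member lay on the same side in both lines, with 0.046 and 2.00 for IER5 and 0.11 and 2.13 for ZFP36, and by −log10 q ZFP36 had 0.073 in WT. With 1 library per condition the difference was not tested.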

How the results depend on the processing

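Over 69 single-gene ratios, 411 of 467 alternatives kept the call or the lack of one, 37 lost the call, 12 gained one and 7 reversed. A change of sign was counted as reversed only where at least 1 of the 2 values was called. Sign changes between uncalled values are among the 411, as for IER2 in WT at 6 h against 2 h (−0.26, and 0.81 within 2 kb of the start). A −log10 q of at least 5 kept all 69. With regions within 2 kb of the start alone, reversals were IER2 WT 2 h against DMSO (−0.13), A3B KO 6 h against DMSO (−0.0011) and A3B KO against WT at 6 h (−1.14), and ZFP36L1 A3B KO 2 h against DMSO (0.63), WT 6 h against 2 h (−0.82) and WT 6 h against DMSO (−0.99). The IER2 reversals compare separate places, a summit inside STX10 and one after the IER2 start. At 6 h these were at −848 in WT (fold enrichment 7.15) and +494 in A3B KO (3.75). By pileup IER5 WT 6 h against DMSO reversed (0.046). The 1 member lower at 2 h became 0 in both lines by pileup, by −log10 q and near the start alone. Near the start alone, the 1 higher at 6 h against 2 h in WT became 0, the 3 higher at 6 h against DMSO in WT became 1, and 1 was lower in A3B KO against WT at 6 h. By pileup, A3B KO 6 h against 2 h gave 0 higher and 2 lower, and A3B KO 6 h against DMSO 3 higher. The 1 lower in WT at 6 h against DMSO became 0 by pileup and by −log10 q. A3B KO against WT gave 0 higher in DMSO, and 0 higher and 1 lower at 2 h, by pileup and by −log10 q, and 3 higher at 6 h by −log10 q. Lists of equal length left 22 WT 6 h regions. The 1 DOX- ChIP region became 0 with −log10 q of at least 5 and with a 1 kb start window. An overlap of at least 250 bp left 3 (DMSO) and 13 (PMA) shared regions. The cause was not tested, apart from the fewer regions that the windows, list lengths and overlap themselves allow. No paired analysis was possible because each condition has 1 library and no replicate numbers. Without read depth, the lists cannot tell a gene without signal from one under the threshold.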
